A study of Danio rerio with 4 samples.

Results

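Of the 22044 genes in the table of normalised counts, 3 carry the symbols olfm1b, olfm1a or OLFML2A (1 of many), which belong to the olfactomedin family, and each symbol has a single row. They were chosen by symbol with their difference between the genotypes already known, so their levels are given here as a description, with no test. All 3 were measured in the mRNA of β-cells sorted by fluorescence from dissected primary islets of zebrafish aged 3 months. The table holds 2 libraries of wild-type (WT) fish and 2 libraries of Tg(ins:il1b) fish. The WT fish carried Tg(ins:mKO) in the spelling of the labels, or Tg(ins:nlsRenilla-mKO2) in the methods, a fluorescent reporter driven by the insulin promoter, and the labels name no other transgene in them. The Tg(ins:il1b) fish carried the same reporter together with Tg(ins:IL1B), in which the insulin promoter drives the mature form of the cytokine interleukin 1 beta in the β-cells themselves, with cryaa:mCherry as the lens marker of the transgene. The Tg(ins:il1b) line goes back to a single founder, and the reporter, the age and the sort were shared by both genotypes. The sources used here do not say if the 2 libraries of each genotype stem from different fish or pools. The p-values below therefore reflect only how far these libraries spread, which may be technical.

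Olfactomedin proteins are mostly secreted glycoproteins that share a propeller-shaped olfactomedin domain at their C-terminal end. Olfactomedin 1, also called noelin or pancortin, is best known in neurons of mice, where it associates with AMPA-type glutamate receptors and binds the Nogo receptor. Zebrafish have a pair of genes for it, olfm1a and olfm1b. OLFML2A encodes photomedin-1, known in mice as a secreted protein that binds glycosaminoglycans of the extracellular matrix. "(1 of many)" is the annotation's mark for a zebrafish gene that is not the only counterpart of the human gene.

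Each value is a normalised count, that is, a read count divided by a factor of its library, so that 1 read was worth between 0.918 and 1.07 normalised counts. The WT libraries held 35073715 and 35637508 reads in genes, and the Tg(ins:il1b) libraries were shallower at 28524617 and 28702122. Insulin (ins) was the gene with the most reads in every library, with 18.5% and 24.5% of them in WT against 11.7% and 9.56% in Tg(ins:il1b). A gene was tested where 2 or more libraries reached 10 normalised counts, which left 18504 genes. limma with Benjamini-Hochberg adjustment called 302 of them at 0.05, which is 1.63%, with 204 up in Tg(ins:il1b) (1.1%) and 98 down (0.530%). At an unadjusted limma p under 0.05, 14.4% of the genes tested differed (7.95% higher and 6.45% lower in Tg(ins:il1b)), and the unadjusted counts below stand beside these shares. On the reads, edgeR called 1.28% (0.903% up and 0.373% down) and DESeq2 called 6.55% (4.17% up and 2.38% down). With only 2 libraries in each genotype, groups without overlap were common, at 44.4% of the genes tested, 22.3% with Tg(ins:il1b) above and 22.1% with Tg(ins:il1b) below. Every limma call given below was lost when any 1 library was left out, since limma then called at most 1 gene, il1b.

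olfm1b was abundant in the WT libraries of sorted β-cells and much lower in those of Tg(ins:il1b) fish. The gene (ENSDARG00000014053) lies on the plus strand of chromosome 21 at 6829154 to 6891310 in GRCz10. Its normalised count was 31389.7 and 27770.5 in WT, against 1995.0 and 2992.1 in Tg(ins:il1b). Both Tg(ins:il1b) libraries were far below both WT libraries. The gene was chosen with this difference known, so the gap is only described. The mean was 29580 ± 2559 (SD, n = 2) in WT and 2494 ± 705 (SD, n = 2) in Tg(ins:il1b), which makes the WT mean 11.9-fold higher. On the log2(value + 1) scale the difference was -3.59, against an SD of 0.12 in WT and 0.41 in Tg(ins:il1b). These levels rest on 34177 and 28785 reads in WT and on 1974 and 2800 reads in Tg(ins:il1b), so that counting error is small beside the spread between libraries.

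Per kilobase of the gene length in the table, olfm1b ranked 183rd and 198th of all 22044 genes in WT and 2263rd and 1616th in Tg(ins:il1b). It thus lay among the most abundant transcripts of the WT libraries, and it was still well detected in Tg(ins:il1b). Its log2 difference was the 96th lowest among the genes tested, and 0.962% of the genes had a difference of -3 or below. In these bulk libraries, fewer cells with olfm1b RNA and less olfm1b RNA per cell cannot be told apart.

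**Figure D1:**
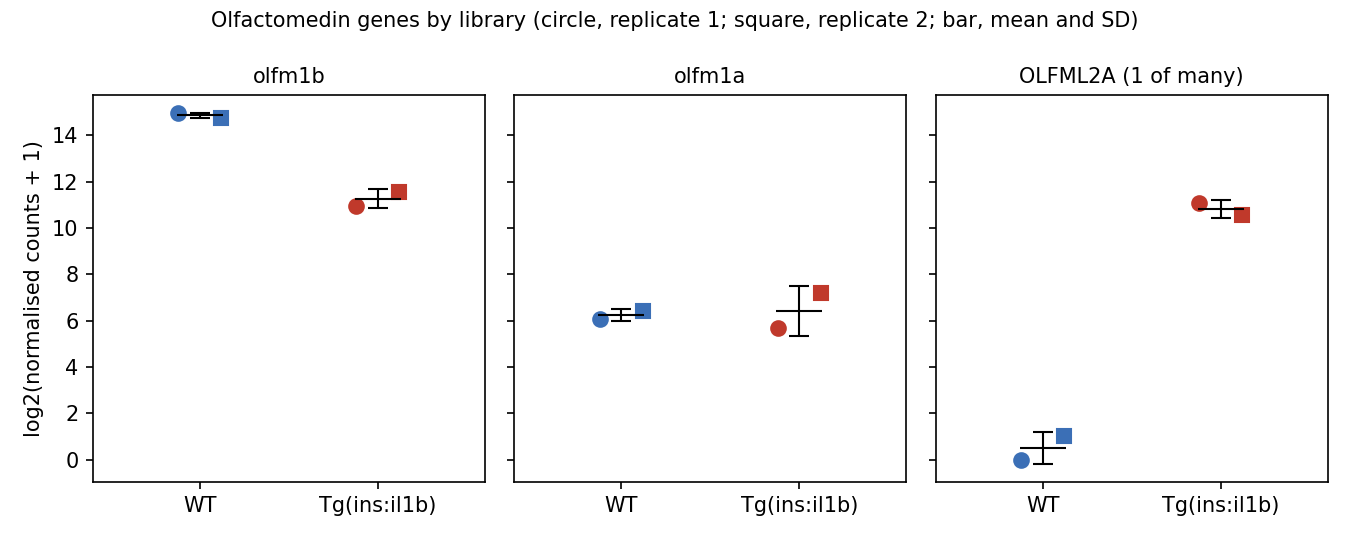
Normalised counts of olfm1b, olfm1a and OLFML2A (1 of many) in each library, on a log scale of value + 1; each point is 1 library and the bars are the means of the log values. olfm1b lies at 27770.5 or above in WT and at 2992.1 or below in Tg(ins:il1b), the points of olfm1a overlap, and OLFML2A (1 of many) lies at 0 and 1.0 in WT and at 1490.7 or above in Tg(ins:il1b).

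Its duplicate olfm1a (ENSDARG00000018270, plus strand of chromosome 5, 64050872 to 64094593 in GRCz10) was a minor transcript in every library and did not separate the genotypes. Its normalised count was 66.1 and 83.9 in WT, against 49.5 and 144.3 in Tg(ins:il1b). The Tg(ins:il1b) libraries held both the lowest and the highest value, so the groups overlapped. The mean was 75 ± 12.6 (SD, n = 2) in WT and 96.9 ± 67.0 (SD, n = 2) in Tg(ins:il1b), a log2 difference of 0.18 against an SD of 1.08 in Tg(ins:il1b). Without the second Tg(ins:il1b) library the difference was -0.58, so its sign rests on that library. The values come from between 49 and 135 reads.

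The balance within the pair moved with olfm1b. Per kilobase, olfm1b stood at 11377 and 10065 in WT and at 723 and 1084 in Tg(ins:il1b), where olfm1a stood at 28.7 and 36.5 and at 21.5 and 62.7. The ratio of olfm1b to olfm1a per length was therefore 396 and 276 in WT, against 33.6 and 17.3 in Tg(ins:il1b). olfm1b thus remained the dominant member of the pair in all 4 libraries, and olfm1a showed no rise to the level that olfm1b had in WT.

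OLFML2A (1 of many) had the opposite pattern, with next to no reads in WT and a substantial level in both Tg(ins:il1b) libraries. The gene (ENSDARG00000104539) lies on the minus strand of chromosome 21 at 8050462 to 8103947 in GRCz10. Its normalised count was 0 and 1.0 in WT, against 2163.8 and 1490.7 in Tg(ins:il1b). In reads, this was 0 of 35073715 and 1 of 35637508 in WT, where a count of 0 allows up to 3 reads, and 2141 and 1395 in Tg(ins:il1b). The WT libraries were at the limit of detection, although they were the deeper ones.

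The Tg(ins:il1b) mean of OLFML2A (1 of many) was 1827 ± 476 (SD, n = 2). Scaled for depth, the 3536 reads of Tg(ins:il1b) against the 1 read of WT give a ratio of 3903, with a 95% exact interval of 700.1 to 154222 that covers counting error only. The log2(value + 1) difference of 10.31 depends on the pseudocount, as the WT values are near 0. It ranked 3 from the top among the 18504 differences, where 2.32% reached 3 or more, and the gene entered the genes tested only through its Tg(ins:il1b) libraries. Per kilobase it ranked 2843rd and 3794th of the 22044 genes in Tg(ins:il1b), so it lay well above the bulk of the genes there.

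Of the 3 olfactomedin rows, limma called 1 as higher and 1 as lower, beside 1.1% and 0.530% of all genes tested. Since the rows were chosen on this contrast, nothing is read from that count. No other gene in the table overlaps any of the 3 in position, and the strand setting of the counting is not given in the sources used here.

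The level of olfm1b was next set against other islet genes of the same library. Of the 7 β-cell markers tested, olfm1b relative to the marker was lower in both Tg(ins:il1b) libraries for 6 and overlapped for 1. As olfm1b was chosen with its fall known, a lower ratio follows for any marker that fell much less. Nothing is therefore read from this count. Of the markers themselves, mnx1, neurod1 and nkx2.2a were higher in both Tg(ins:il1b) libraries, ins, pdx1 and ucn3l were lower, and pcsk1 overlapped. Groups without overlap made up 44.4% of all genes tested. How far other islet cells share the genes of this marker list was not tested. Per 1000 normalised counts of ins, the hormone of the β-cell, olfm1b had 5.25 and 3.29 in WT, against 0.594 and 1.02 in Tg(ins:il1b). Per 1000 of pdx1, a transcription factor of β-cells, it had 383 and 321 in WT, against 48.6 and 50.6 in Tg(ins:il1b). The libraries of the genotypes did not overlap on either ratio. The exception was ucn3l, a urocortin gene of mature β-cells, itself at 5899.2 and 9440.1 in WT and at 271.9 and 1949.2 in Tg(ins:il1b) (log2 fold change -3.35 ± 0.84 SE, limma adjusted p = 0.137). Per 1000 of ucn3l, olfm1b stood at 5321 and 2942 in WT and at 7337 and 1535 in Tg(ins:il1b), so relative to this gene olfm1b did not separate the genotypes.

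Neurosecretory genes were compared in the same way. Per 1000 of pcsk1, which encodes the prohormone convertase that cleaves proinsulin, olfm1b had 395 and 325 in WT, against 23.9 and 90.6 in Tg(ins:il1b). Per 1000 of snap25a, a component of the vesicle fusion machinery, it had 3070 and 3016 in WT, against 197 and 211 in Tg(ins:il1b). snap25a itself overlapped between the genotypes (10226.0 and 9207.6 in WT, 10108.5 and 14212.7 in Tg(ins:il1b)), so this ratio follows olfm1b. Per 1000 of elavl4, an RNA-binding protein of neurons and endocrine cells, olfm1b had 7767 and 6374 in WT, against 976 and 879 in Tg(ins:il1b).

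**Figure D2:**
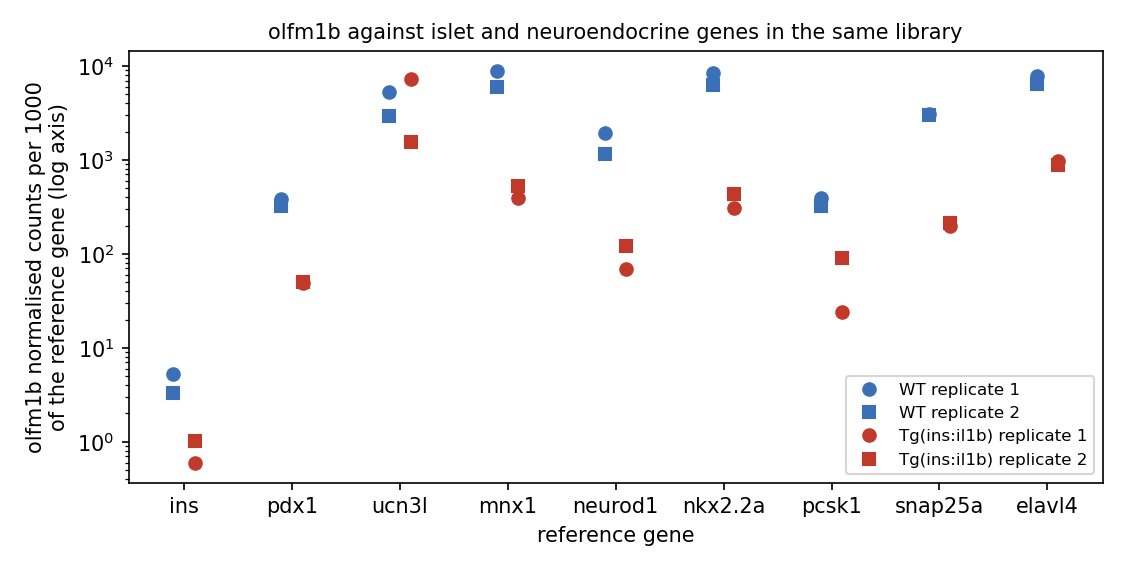
Normalised counts of olfm1b per 1000 normalised counts of the 7 tested β-cell markers, snap25a and elavl4, on a log scale, with 1 point for each library. Both Tg(ins:il1b) points lie below both WT points for every reference gene except ucn3l, for example at 197 and 211 against 3070 and 3016 for snap25a.

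Markers of other islet cells also differed between the libraries. The summed level of the 4 α-cell markers (gcga, gcgb, arxa and mafba) was 24145 and 32748 in WT, against 198981 and 440358 in Tg(ins:il1b). Of these 4, 3 were tested, of which limma and edgeR called 1 each and DESeq2 called 3 as higher. The shares over all genes tested were 1.1%, 0.903% and 4.17%. gcga, a glucagon gene, was called higher by limma (log2 fold change 5.35, Benjamini-Hochberg adjusted p = 0.0184). gcgb did not pass (limma adjusted p = 0.0817), and mafba was too low to be tested. arxa, which defines α-cells, was at 0 and 2.9 in WT and at 66.7 and 199.8 in Tg(ins:il1b) (limma adjusted p = 0.0537). It was tested only through its Tg(ins:il1b) libraries and could only come out higher. The α-cell markers thus moved in the same direction as OLFML2A (1 of many), and their part in its level was not tested.

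OLFML2A (1 of many) did not keep a fixed proportion to gcga within Tg(ins:il1b), with 17.7 per 1000 of gcga in replicate 1 and 3.89 in replicate 2. Per 1000 of gcgb, the other glucagon gene, it had 28.3 and 26.2 in the Tg(ins:il1b) libraries. In WT, where gcgb was at 16454.9 and 29078.7, OLFML2A (1 of many) was at 0 and 0.0344 per 1000 of it. The WT libraries held RNA of both glucagon genes with next to no OLFML2A (1 of many). As OLFML2A (1 of many) was chosen with its near absence in WT known, nothing is read from its WT ratios. The other α-cell markers, arxa (0 and 2.9) and mafba (0 and 1.0), were themselves near 0 in WT. The part of α-cells in the level of OLFML2A (1 of many) was not tested.

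The δ-cell markers (4 in the table; limma and edgeR called 0 and DESeq2 called 1 as higher) varied widely within each genotype, with sums of 95215 and 2097 in WT, against 47229 and 1141632 in Tg(ins:il1b). OLFML2A (1 of many) and olfm1b did not follow that order. Both were chosen with their difference between the genotypes known, so nothing is read from this. The part of δ-cells in their levels was not tested. Of the 8 macrophage and leukocyte markers in the table, 6 were tested, and limma and edgeR called 0. lcp1 and mpeg1.1 were too low to be tested. The 8 markers summed to 75.2 and 88.9 in WT and to 172.8 and 509.6 in Tg(ins:il1b). mpeg1.1 was at 0 and 1.0 in WT and at 0 and 20.3 in Tg(ins:il1b). DESeq2 called 1 of these markers, mfap4, as higher (1.8 and 0 in WT, 22.2 and 162.4 in Tg(ins:il1b), DESeq2 adjusted p = 4.97e-04). mfap4 entered the genes tested only through its Tg(ins:il1b) libraries and could only be called as higher. The part of macrophages and leukocytes in the level of OLFML2A (1 of many) was not tested.

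Of the 4 glial markers in the table, 3 were tested, of which limma and edgeR called 0 and DESeq2 called 1 as higher. The 4 markers summed to 4284 and 4045 in WT and to 10057 and 8171 in Tg(ins:il1b). Nearly all of this was plp1b, a myelin proteolipid gene. Per 1000 of plp1b, OLFML2A (1 of many) had 0 and 0.252 in WT, against 216 and 184 in Tg(ins:il1b). It was chosen with its near absence in WT known, so a WT ratio near 0 follows for any gene well detected there. Nothing is therefore read from this ratio, and the part of glial cells in the level of OLFML2A (1 of many) was not tested. Endothelial markers (4 in the table, 3 tested, 0 called by any of the 3 tools) summed to between 24.2 and 121.3, lower in both Tg(ins:il1b) libraries. Mesenchymal markers (6 in the table, 5 tested, again 0 called) summed to between 81.0 and 235.9, with overlapping groups. Acinar markers (10 in the table, again 0) summed to between 1179 and 6368, again overlapping. ins had the most reads in each library, but this cannot show how pure the sorted β-cells were. In Tg(ins:il1b) replicate 1, sst1.1 was at 45219.4 and gcga at 122372.2, beside 3359298.6 for ins. In Tg(ins:il1b) replicate 2, sst1.1 was at 1076219.5 and gcga at 383327, beside 2930996.4 for ins. Of the 7 β-cell markers tested, limma and edgeR called 0 while DESeq2 called 1 as lower. Where limma called 0, its unadjusted p was under 0.05 for 4 β-cell markers (1 higher, 3 lower), 2 δ-cell, 2 macrophage and 1 glial marker (all higher), and for 0 acinar, endothelial or mesenchymal markers. The 2 macrophage markers, mfap4 and ptprc, were tested only through their Tg(ins:il1b) libraries and could only come out higher.

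olfm1b and OLFML2A (1 of many) share a chromosome, and 1159151 bases of chromosome 21 separate them. The interval between them holds 24 genes of the table, of which 19 were tested. By limma, 2 of these rose and 0 fell, beside 1.1% and 0.530% of all genes tested, and their median log2 fold change was 0.46 with a range from -0.55 to 5.86. No tested gene of the interval had a drop of the size seen for olfm1b. Several were too low in WT to show one, such as otpa (12.9 and 6.8 in WT) and pde8b (10.1 and 10.6 in WT). Nothing is therefore read from this for the interval as a whole.

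The pair called by limma is uncharacterised. zgc:171965 was at 2.8 and 2.9 in WT and at 338.6 and 145.3 in Tg(ins:il1b) (log2 fold change 5.86 ± 0.69 SE, limma adjusted p = 0.0209). si:dkey-163m14.7 was at 5.5 and 7.7 in WT and at 311.3 and 141.1 in Tg(ins:il1b) (4.81 ± 0.64 SE, limma adjusted p = 0.0276). In both, the Tg(ins:il1b) libraries were well above the WT libraries, as for OLFML2A (1 of many). si:dkey-163m14.10 and si:dkey-163m14.8p, beside them on the chromosome, had the same order but were not called by limma. All of these genes entered the genes tested only through their Tg(ins:il1b) libraries and could only be called as higher. Nothing is therefore read from the count of limma calls in the interval.

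Of the nearest gene on either side of the 3 olfactomedin genes, 2 were high enough to be tested and neither passed. col5a1, a fibrillar collagen gene 25624 bases from olfm1b, was at 352.7 and 329.0 in WT and at 293.1 and 655.1 in Tg(ins:il1b) (limma adjusted p = 0.782). aggf1, an angiogenic factor gene 19231 bases from OLFML2A (1 of many), was at 341.7 and 396.5 in WT and at 364.8 and 323.8 in Tg(ins:il1b) (limma adjusted p = 0.931). For both genes the libraries of the genotypes overlapped.

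**Figure D3:**
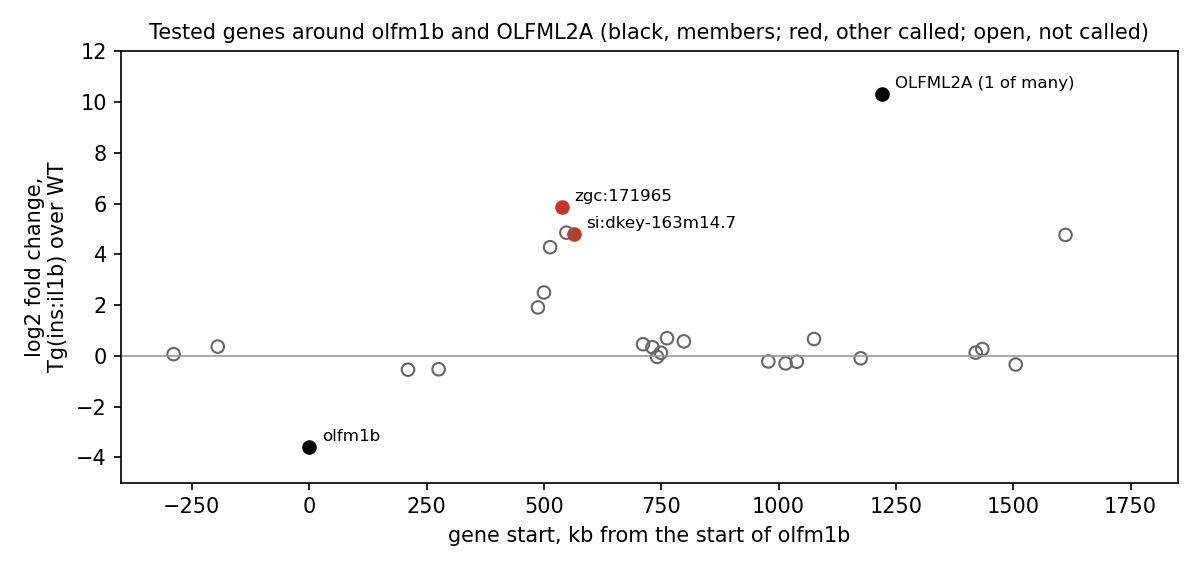
Log2 fold change, Tg(ins:il1b) over WT, of the tested genes on chromosome 21 around olfm1b, plotted against the distance from its start. olfm1b stands at -3.59 and OLFML2A (1 of many) at 10.31, and the 19 tested genes between them lie from -0.55 to 5.86.

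The rest of the olfactomedin-domain family was then examined. The table holds 13 other members, of which 10 were tested. limma and edgeR called 0 of the 10, DESeq2 called 2 as higher, and at an unadjusted p under 0.05 in limma 3 were higher and 0 were lower. The median log2 fold change was 0.28, beside -0.01 over all genes tested, with 8 above 0 and 2 below. olfm2a and myoc entered the genes tested only through their Tg(ins:il1b) libraries and could only come out higher. Nothing is therefore read from the direction of these counts.

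The 3 with the largest differences were low in WT. olfm2a, the olfactomedin 2 gene, was at 0.9 and 0 in WT and at 15.2 and 152.8 in Tg(ins:il1b) (log2 fold change 5.18 ± 1.31 SE, limma adjusted p = 0.141, DESeq2 adjusted p = 0.00186). gldn, which encodes gliomedin, a protein that helps to assemble nodes of Ranvier, was at 28.5 and 90.7 in WT and at 247.6 and 362.3 in Tg(ins:il1b) (2.53 ± 0.61 SE, limma adjusted p = 0.125, DESeq2 adjusted p = 0.00489). myoc, the myocilin gene known from the trabecular meshwork of the human eye, was at 2.8 and 3.9 in WT and at 13.1 and 46.0 in Tg(ins:il1b) (2.58 ± 0.98 SE, limma adjusted p = 0.302). In all 3 the Tg(ins:il1b) libraries lay above the WT libraries, as for 22.3% of all genes tested, but by limma none passed the test.

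olfm3a, the olfactomedin 3 gene, was the most abundant of the other members, and its values spread widely within each genotype. It was at 576.8 and 1346.8 in WT and at 674.1 and 1392.4 in Tg(ins:il1b) (log2 fold change 0.14 ± 0.50 SE, limma adjusted p = 0.948). Among the latrophilins, adhesion receptors that carry an olfactomedin domain, adgrl3.1 was at 214.9 and 365.6 in WT and at 291.1 and 389.0 in Tg(ins:il1b) (limma adjusted p = 0.832). ADGRL3 (1 of many) was at 120.3 and 63.7 in WT and at 12.1 and 120.8 in Tg(ins:il1b) (limma adjusted p = 0.712). The libraries of the genotypes overlapped in each of them.

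The remaining tested members were at 184.3 normalised counts or below in every library. adgrl1a, another latrophilin, was at 56.9 and 83.0 in WT and at 54.6 and 131.4 in Tg(ins:il1b), and adgrl2b.1 was between 19.2 and 39.4 in all libraries. olfml2ba, which like OLFML2A (1 of many) belongs to the photomedin branch, was at 119.4 and 184.3 in WT and at 91.0 and 157.1 in Tg(ins:il1b). OLFM4 (1 of many), related to a secreted glycoprotein of the mammalian gut and neutrophils, was between 9.2 and 29.3. None of these separated the genotypes, with limma adjusted p between 0.842 and 0.947.

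Per kilobase, and summed over the 3 rows and the 13 others, the olfactomedin family stood at 11728 and 10766 in WT and at 1758 and 2422 in Tg(ins:il1b). olfm1b made up 97.0% and 93.5% of that sum in WT, against 41.1% and 44.8% in Tg(ins:il1b). OLFML2A (1 of many) made up 0% and 0.00237% of it in WT, against 31.4% and 15.7% in Tg(ins:il1b), and the share of olfm3a was 1.69% and 4.30% in WT, against 13.2% and 19.8% in Tg(ins:il1b). olfm1b ranked first of the 16 genes per kilobase in all 4 libraries. OLFML2A (1 of many) ranked 2 and 3 in the Tg(ins:il1b) libraries, and olfm1a ranked between 5 and 7 throughout.

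**Figure D4:**
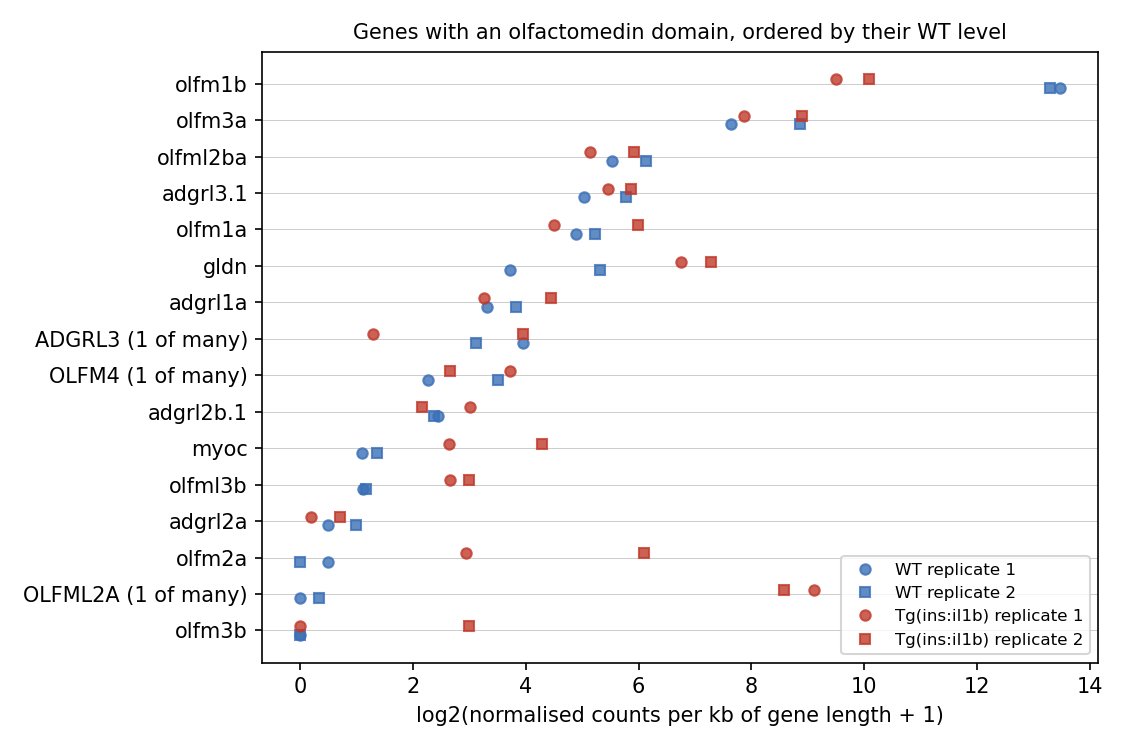
Normalised counts per kilobase of the 16 olfactomedin-domain genes in the table, on a log scale, with 1 point for each library. olfm1b is first in all 4 libraries, from 11377 and 10065 in WT to 723 and 1084 in Tg(ins:il1b), and OLFML2A (1 of many) goes from 0 and 0.255 to 551 and 380.

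Genes for proteins reported to bind olfactomedin 1 or to meet the latrophilins were taken from lists. Of the AMPA receptor subunits and their auxiliary proteins, 13 of the 15 in the table were tested, and limma, edgeR and DESeq2 called 0 (1 higher and 2 lower at an unadjusted limma p under 0.05, median log2 fold change -0.46). gria2b, a receptor subunit gene, was at 2531.2 and 2120.5 in WT and at 3348.3 and 3410.0 in Tg(ins:il1b) (limma adjusted p = 0.285). gria4a, another subunit gene, was at 1718.4 and 1753.9 in WT and at 974.3 and 1093.2 in Tg(ins:il1b) (limma adjusted p = 0.169). The groups did not overlap for either gene, in opposite directions, as for 44.4% of all genes tested. Neither gene passed the test.

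Of the Nogo receptor complex, which limits axon growth, all 11 genes in the table were tested, and limma and edgeR called 0 (0 higher and 3 lower at an unadjusted limma p under 0.05, median log2 fold change -0.20). Among the 3 lower, rtn4rl1b was tested only through its WT libraries and could only come out lower. DESeq2 called tnfrsf19 as lower. This gene, for a co-receptor of the complex also known as TROY and named here after its values were seen, was at 1429.1 and 1349.7 in WT and at 134.4 and 429.6 in Tg(ins:il1b) (log2 fold change -2.53 ± 0.52 SE, limma adjusted p = 0.0868, DESeq2 adjusted p = 4.44e-04). The highest normalised counts of the list were those of rtn4rl2b, a Nogo receptor homologue (20763.3 and 24560.7 in WT, 23608.7 and 31206.9 in Tg(ins:il1b), limma adjusted p = 0.686), and rtn4a, which encodes Nogo itself (4539.9 and 3861.9 in WT, 4095.1 and 4789.6 in Tg(ins:il1b), limma adjusted p = 0.918). Both overlapped between the genotypes.

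Of the latrophilin ligands, 12 of the 13 in the table were tested, and limma and edgeR called 0 (0 higher and 1 lower at an unadjusted limma p under 0.05, median log2 fold change -0.29), while DESeq2 called nrxn1a as lower. nrxn1a, a synaptic adhesion gene of the neurexin family, was at 3559.0 and 4132.0 in WT and at 2003.1 and 2069.9 in Tg(ins:il1b) (log2 fold change -0.91 ± 0.20 SE, limma adjusted p = 0.0971, DESeq2 adjusted p = 0.00957). flrt3, a leucine-rich repeat ligand of the latrophilins, was at 2111.5 and 1481.9 in WT and at 1136.0 and 1797.4 in Tg(ins:il1b) (limma adjusted p = 0.742). nrxn1a was lower in both Tg(ins:il1b) libraries, as were 22.1% of all genes tested, and flrt3 overlapped.

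Of the other reported partners of olfactomedin 1, all 7 in the table were tested. 1 rose by limma, 1 by edgeR and 1 by DESeq2, beside 1.1%, 0.903% and 4.17% of all genes tested, and 0 fell. At an unadjusted limma p under 0.05, 1 was higher and 1 lower (median log2 fold change -0.04). The gene that rose was sfrp1a, a secreted inhibitor of Wnt signalling, at 0 and 1.9 in WT and at 237.5 and 380.4 in Tg(ins:il1b) (log2 fold change 7.47 ± 0.81 SE, limma adjusted p = 0.0183). Its 591 reads in Tg(ins:il1b) against 2 in WT give a depth-scaled ratio of 326 (95% exact interval 89.9 to 2700, counting error only). Like OLFML2A (1 of many), sfrp1a was at the limit of detection in both WT libraries. It was tested only through its Tg(ins:il1b) libraries and could only be called as higher. The limma call of sfrp1a was lost without any 1 of the 4 libraries, where the adjusted p was between 0.107 and 0.152. The amyloid precursor genes appa (7741.6 and 8377.9 in WT, 6821.9 and 7951.6 in Tg(ins:il1b)) and appb (5783.5 and 5880.2 in WT, 4317.5 and 4108.8 in Tg(ins:il1b)) did not pass the test, with limma adjusted p of 0.842 and 0.310.

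**Figure D5:**
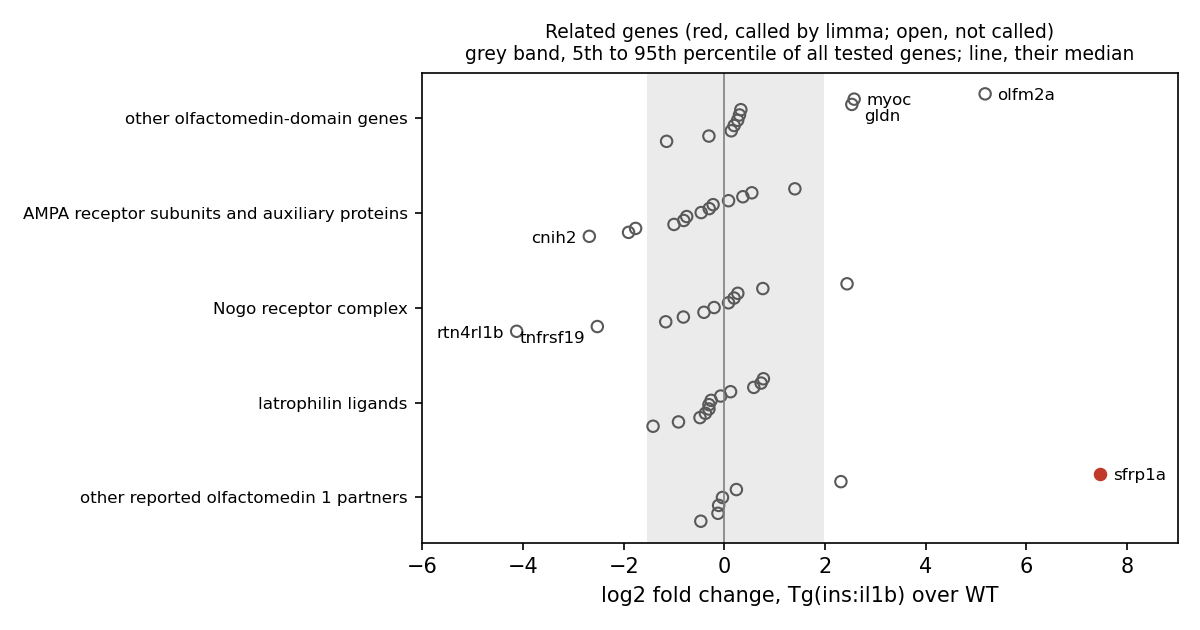
Log2 fold change, Tg(ins:il1b) over WT, of the tested genes of 5 lists, with each point 1 gene; filled red points passed limma at an adjusted p of 0.05 and open points did not. Only sfrp1a, at 7.47, passed. The grey band runs from the 5th to the 95th percentile of all genes tested (-1.53 to 1.95); outside it lie also olfm2a (5.18), myoc (2.58), gldn (2.53), rtn4rl2a (2.44) and wasf1 (2.31) above and rtn4rl1b (-4.13), cnih2 (-2.68), tnfrsf19 (-2.53), gria3a (-1.90) and gria4b (-1.76) below.

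Finally, the genes whose pattern over the 4 libraries was nearest to each olfactomedin gene were taken by the root mean square difference of their centred log2(value + 1). These genes were picked for their pattern, so their order between the genotypes follows from the choice and is no further result. For olfm1b the nearest was plpp7, annotated as an inactive phospholipid phosphatase, with 416.1 and 460.2 in WT, against 24.3 and 46.0 in Tg(ins:il1b) (difference 0.16 on the log2 scale). Next came ano5a, an anoctamin gene (0.17), and si:dkey-1d7.3 (0.20). In all 3 the WT libraries lay above those of Tg(ins:il1b), and si:dkey-1d7.3 rested on values of 21.1 or less.

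For olfm1a the nearest were b3galnt2, a glycosyltransferase gene, with 67.0 and 87.8 in WT, against 52.6 and 162.4 in Tg(ins:il1b) (0.054), tmem82 (0.059) and CABZ01046997.1 (0.069), all of them with overlapping groups. For OLFML2A (1 of many) the nearest were farther off, si:ch211-203c7.2 at 0.71, her4.2 at 0.86 and dkk3a at 1.01. her4.2, a hairy-related transcription factor gene, was at 0 in both WT libraries and at 403.2 and 752.3 in Tg(ins:il1b). dkk3a, of the dickkopf family, was at 0 in both WT libraries and at 367.9 and 330.2 in Tg(ins:il1b). Chosen for this pattern, each of these 3 genes was listed at 0 in both WT libraries and detected in both Tg(ins:il1b) libraries. OLFML2A (1 of many) was at 0 and 1.0 in WT.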

How the data were processed

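The authors aligned the 2 × 75 bp reads of the 4 libraries to GRCz10 using GSNAP, with gene models of Ensembl 87, as the methods and the submitters' processing notes state. The GSNAP version, the read counter, its strand setting and the normalisation tool were not given in the sources used here. The authors deposited a signal per gene, namely counts divided by a factor of each library and rounded to 1 decimal. Whole reads were recovered from these steps in each library, and 100% of the values came out within 0.1 of a whole number.

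Values were tested as log2(value + 1) with limma 3.58.1 (variance trend, two-sided, Benjamini-Hochberg over the 18504 of 22044 genes that reached 10 normalised counts in 2 or more libraries, threshold 0.05) in R 4.3.3. edgeR 4.0.16 (quasi-likelihood) and DESeq2 1.42.0 on the recovered reads were alternatives. The scripts were tested on simulated data. Descriptions and plots were made with Python 3.11.15, pandas 2.3.3, numpy 2.4.6, scipy 1.17.1 and matplotlib 3.10.9. Poisson ratio intervals are exact at 95% and cover counting error only.

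The 3 olfactomedin rows and all gene and marker lists were chosen with earlier results of these data known. The genes named are the 3 rows, every tested gene of the olfactomedin-domain family, up to 4 called genes and the 2 most abundant of each partner list, and the 3 genes nearest to each row; neighbours on the chromosome, marker genes and the genes used in ratios were named beyond this rule. The prefix search also matched myocd, which has no olfactomedin domain and was left out. Replicate numbers are shared by the genotypes, but no source ties them to a common batch, so the replicate block was an alternative only.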

Additional observations from a re-analysis of the deposited data

How the results depend on the processing

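The olfm1b log2 difference kept its sign in the 9 alternatives that apply to a level, between -3.89 and -3.30. That of OLFML2A (1 of many) also kept its sign but depends on how values near 0 are treated: it was 11.02 with a pseudocount of 0.5, 8.36 with a pseudocount of 5, 11.59 in edgeR and 11.92 in DESeq2, and 9.81 to 10.81 with 1 library left out. That of olfm1a ran from -0.58 to 0.94 with 1 library left out. limma rests on 2 residual degrees of freedom, and the number of genes called moved most: 302 in the main analysis, 1212 in DESeq2, 13 without the variance trend and 0 to 1 with 1 library left out, where 1644 to 2874 genes had an unadjusted p under 0.05. Leaving out a library leaves fewer samples; for the other settings the cause was not tested. Of the other olfactomedin-domain genes DESeq2 called 2, of the latrophilin ligands 1 and of the Nogo receptor complex 1. Of the other olfactomedin 1 partners, 0 were called without the variance trend (sfrp1a adjusted p = 0.0623), 0 with at least 10 normalised counts required in all 4 libraries, which removes sfrp1a, and 0 to 0 with 1 library left out.

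With the replicate block, limma called 437 genes (293 rose and 144 fell), and 1 gene of the Nogo receptor complex, tnfrsf19 (adjusted p = 0.0453); it changed no other list's count. Deviations of same-numbered libraries correlated at 0.033 over genes, and with only 2 pairs this does not show pairing.

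Log2 differences of named genes that did not pass the test changed sign with 1 library left out, within these ranges: olfm3a -0.47 to 0.75, olfml2ba -0.70 to 0.082, adgrl1a -0.33 to 0.92, adgrl2b.1 -0.31 to 0.69, adgrl3.1 -0.12 to 0.64, OLFM4 (1 of many) -0.35 to 1.00, ADGRL3 (1 of many) -2.76 to 0.46, rtn4a -0.036 to 0.20 and flrt3 -0.64 to 0.023. Over the 19 named genes, 222 of the values kept their direction and side of the threshold, 13 changed sign, 3 passed only in the alternative and 5 passed only in the main analysis. Genes with values near 0 in WT are limited by depth: there, a read more or less moves the fold change.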

Other observations

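Olfactomedin 1 is best known from neurons, so the neuronal markers, which sort out no cell type on their own because endocrine cells share many of them, were read beside olfm1b. Of the 6 tested, 1 rose and 0 fell by limma, beside 1.1% and 0.530% of all genes tested. stmn2a, a microtubule regulator of growing axons, was at 1412.6 and 1562.9 in WT and at 4388.2 and 5998.2 in Tg(ins:il1b) (log2 fold change 1.79 ± 0.23 SE, limma adjusted p = 0.0248). tubb5, a tubulin gene, was at 150.6 and 215.1 in WT and at 534.6 and 694.6 in Tg(ins:il1b) (1.75 ± 0.33 SE, limma adjusted p = 0.0664, DESeq2 adjusted p = 2.66e-04). The neuronal markers summed to 17969 and 17311 in WT and to 19586 and 28102 in Tg(ins:il1b), most of it from snap25a, so the sum was not lower where olfm1b was lower. elavl4 of the same list was lower in both Tg(ins:il1b) libraries, at 4041.2 and 4356.8 in WT and at 2043.5 and 3404.6 in Tg(ins:il1b) (-0.67 ± 0.28 SE, limma adjusted p = 0.347). elavl3, which is restricted to neurons in most tissues, was at 65.2 and 117.7 in WT and at 39.4 and 175.3 in Tg(ins:il1b), with overlapping groups.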
